A study of Mus musculus with 2 samples.

Results

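The 10 genes followed here lie on the path from the transcription factor *Mitf* to purine nucleotide synthesis, namely *Mitf*, *Impdh1*, *Impdh2*, *Ppat*, *Gart*, *Pfas*, *Paics*, *Adsl*, *Atic* and *Gmps*. They were taken by gene name from the annotation of the array, where they had 17 of 55662 probes, and they make up 10 of 22416 named genes. RNA was prepared from long-term hematopoietic stem cells (LT-HSCs) of the bone marrow of C57BL/6J mice at 2 years of age, and 1 array was hybridized per genotype. Both genotypes carried floxed *p38α* alleles and had been injected with tamoxifen (TAM) about 1 year earlier. The p38αΔ/Δ mice also carried CAG-CreERT2, a Cre recombinase that TAM activates and that a ubiquitous promoter drives, so that deletion was not limited to blood cells. The controls, called p38α+/+ here and wild-type in the labels, were Cre(−) mice. The labels give the sorted cells as CD150+CD48-Flt3-CD34- LSK cells. The number of mice behind an array is not given in the sources used here, and since each genotype has 1 array, the differences below are without a measure of their spread between mice and were not tested.

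Purine nucleotides are built on phosphoribosyl pyrophosphate (PRPP) until the first complete purine, inosine monophosphate (IMP), is reached. IMP is then turned into AMP or, through the IMP dehydrogenases *Impdh1* and *Impdh2* and through *Gmps*, into GMP. Dividing cells draw on this pathway for DNA and RNA, whereas salvage enzymes recycle purine bases. *Mitf* is a basic helix-loop-helix factor best known from pigment cells, mast cells and osteoclasts, and it binds E-boxes, of which CACGTG is the typical form. Earlier work of the same group placed p38MAPK, *Mitf* and *Impdh2* in 1 line upstream of purine synthesis in stressed HSCs of young mice. The arrays show the RNA of these genes in unstressed HSCs of old mice.

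Because several of the results below differ between probes of one gene, the probes themselves are shown first. Each has 60 bases, and 30 of them are given for most probes of the genes described in most detail. Capitals mark a polyadenylation hexamer, AATAAA or its common variant ATTAAA, which stands shortly before the end of many mRNAs. A number after the gene orders its probes from the brightest to the dimmest.
Mitf probe 2: cagcaatactttctgtatggtccgcagcac
Impdh1: ttaaataatctgAATAAAtcaagcagttat
Impdh2 probe 1: atgccttgaatttttcAATAAAagtttggg
Impdh2 probe 2: cttgaatttttcAATAAAagtttgggaaaa
Gart probe 1: agttattacataATTAAAtgtttttgagct
Gart probe 2: aagaatctgattgaaaccatacaaacgaat
Atic probe 1: agaacattttatAATAAAcagtcatctttt
Atic probe 2: aatggactggcgttctgcatagagcttttc
Gmps probe 1: gcctggcaatcagagtaatatgtgctgaag
Gmps probe 2: gagctgaggatgATTAAAatggaaggaaga
Gmps probe 3: cttagggaacctatcagtgatggtctgtct

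AATAAA is held by 4 of the 17 probes, against 10.1% of all probes on the array, and 2 further probes hold ATTAAA only. One of these is *Gmps* probe 2, at position 2341 of its transcript, with probe 3 at position 4380 of the same transcript. Its ATTAAA therefore does not stand shortly before the end of that transcript. The *Impdh2* probes are shifted against each other by 6 bases and share 54, so they read the same end of the transcript and are no independent measure of it. In *Gart* and *Atic*, the brighter probe holds a hexamer and the dimmer one does not. The annotation ties *Gart* probe 1 first to ENSMUST00000120450 and *Gart* probe 2 first to NM_010256, each with further transcripts listed. It gives no transcript lengths.

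Signals were put on a log2 scale relative to the 75th percentile of each array. Of all probes, 67.9% (p38α+/+) and 69.0% (p38αΔ/Δ) were called well above background by the scanner software. Among the 35776 probes well above background on both arrays, the quartiles of the log2 difference, p38αΔ/Δ minus p38α+/+, were -0.35 and 0.37. *Mapk14*, which encodes the deleted p38α, had log2 differences of -0.04 and -0.05 at its pair of probes, so the targeted gene did not separate the arrays. The second array is therefore called the array labelled p38αΔ/Δ, and every direction below rests on that label. Whether either *Mapk14* probe lies in the deleted part of the gene is not given in the sources used here. The paper reports that p38α was reduced, short of a complete loss, by PCR of genomic DNA in blood cells of mice treated by this schedule. It also reports lower expression of p38MAPK pathway genes in p38αΔ/Δ HSCs in its array comparison of these genotypes.

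The cells on the 2 arrays also differed in markers. Of 8 HSC markers, all well above background on both arrays, 7 were lower on the array labelled p38αΔ/Δ, with a median log2 difference of -0.78 (*Mecom*, the lowest at -1.44, was at 0.61 at another of its probes). Their summed signal, in units of the array's 75th percentile, went from 136 to 109. Of 8 neutrophil markers 7 were higher, and their sum went from 8.10 to 25.0. All 6 B cell markers were higher, with *Ms4a1* not above background on the p38α+/+ array. Their sum was 2.62 and 17.5, mostly from *Jchain*, a gene of antibody-secreting cells, whose log2 signal was 0.18 and 3.93. *Cd34* (-0.15), *Flt3* (0.36) and *Cd48* (1.37, and 0.19 at its other probe), whose proteins the gate excludes, were measured on both arrays, with a sum of 7.47 and 7.23. In a bulk sample fewer cells of a type and less RNA per cell cannot be told apart, and the part of this shift in the values below was not tested.

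All 17 probes of the 10 genes were well above background on both arrays, and each was a single spot. An intensity of this scanner carries an error from its software's model, close to the 10% of the signal that the model presets, which comes to between 0.20 and 0.22 on the log2 scale for a difference between the arrays. Spots of one probe repeated within an array gave a measured counterpart, a standard deviation of 0.13 for a difference between single spots. Neither is the spread between mice. The difference was larger than the software's error at 15 of the 17 probes, 7 of them higher and 8 lower on the array labelled p38αΔ/Δ. Differences of this size were common on the array. The quartiles of all probes well above background on both arrays, -0.35 and 0.37, also lay beyond an error of 0.20 to 0.22.

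No probe of these genes differed by 2-fold, a size reached downward by 5.52% and upward by 5.01% of all probes well above background on both arrays. A difference of at least 1.5-fold was seen at 5 probes. It was upward at 2 (11.8% of the 17, against 14.8% of all probes) and downward at 3 (17.6%, against 14.2% of all), so the shares of large differences were near those of the array as a whole. Compared with probes of like brightness, those within 0.5 log2 of their own mean signal, 10 of the 17 lay outside the quartiles, which leave out 50% by definition.

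**Figure D1:**
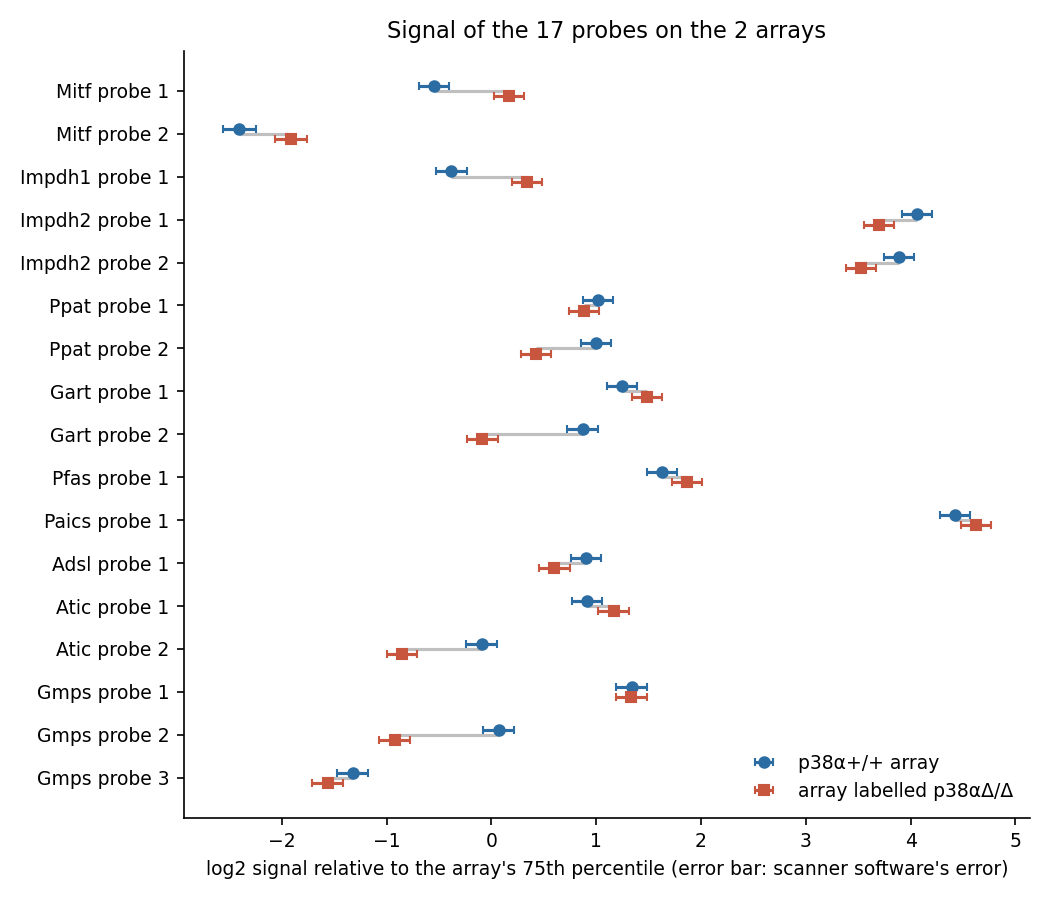
Log2 signal of every probe relative to the 75th percentile of its array (horizontal axis) on the p38α+/+ array (circles) and on the array labelled p38αΔ/Δ (squares). Bars are the scanner software's error of a spot, not a spread between mice. Both *Mitf* probes and *Impdh1* lie to the right on the array labelled p38αΔ/Δ and both *Impdh2* probes to the left, whereas *Gart* and *Atic* each have probes that moved apart.

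*Mitf* was higher on the array labelled p38αΔ/Δ at both of its probes. Probe 1 had an intensity of 98.1 on the p38α+/+ array and 129 on the other, before any scaling between the arrays. Relative to the 75th percentile this was a log2 signal of -0.55 ± 0.15 (scanner error) and 0.17 ± 0.14, a difference of 0.72 or 1.64-fold. Among all probes, 10.5% were higher by as much.

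Probe 2, further downstream on chromosome 6 of build mm9 from 97971229 to 97971288, had intensities of 27.1 and 30.6. Its log2 signal of -2.40 ± 0.16 and -1.91 ± 0.15 gave a difference of 0.49, and 18.8% of all probes reached this. With normexp background correction the difference was 0.20. The scanner error of 0.22 belongs to the signals without this correction, so it cannot be set against 0.20. Both probes are tied to the same 3 curated transcripts, so they do not separate the isoforms of *Mitf* that start from different promoters. The other members of the family, which share E-box binding, had differences of both signs. *Tfe3* differed by 0.15 and *Tfeb* by -0.08, and *Tfec* by -0.58, going from a log2 signal of 2.17 to 1.59.

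Genes that are usually read with *Mitf* in other cells were also looked at. Of 6 pigment cell genes under *Mitf* control, *Tyrp1* and *Dct* were not well above background on either array. *Tyr*, the key enzyme of melanin synthesis, had a log2 difference of 0.97, whereas *Pmel* (0.04) and *Trpm1* (0.13, and -0.35 at the lowest of its probes) differed at their brightest probe by no more than the spot spread. *Mlana* passed the background on the array labelled p38αΔ/Δ only, and the summed signal was 1.49 over 3 genes on the p38α+/+ array and 2.24 over 4, *Mlana* included, on the other. Of 11 mast cell and basophil markers, *Ms4a2*, *Cma1*, *Tpsab1*, *Mcpt4* and *Mcpt8* were not well above background on either array. The 6 others had a median log2 difference of -0.64 (-0.20 with normexp background correction, -0.40 with probes averaged) and a summed signal of 19.9 and 12.7, and *Gata2* (-0.74), which HSCs also express, carried most of this. *Cpa3*, a mast cell protease, differed by 0.42, and the basophil protease *Prss34* by -1.04.

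The IMP dehydrogenases catalyse the same step, the entry to GMP, and moved in opposite directions. *Impdh2*, the form that proliferating cells induce, was lower on the array labelled p38αΔ/Δ. Its probe 1, on chromosome 9 from 108467836 to 108467895 (mm9), went from an intensity of 2390 to 1492, a log2 signal of 4.06 ± 0.14 and 3.70 ± 0.14 and a difference of -0.36, or 1.29-fold. Probe 2, from 108467842 to 108467901, gave 3.89 and 3.53 and the same difference of -0.36.

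This difference at *Impdh2* was larger than the scanner error but of a common size. Among all probes, 24.3% were lower by as much as probe 1. The 1246 probes of like brightness had a median of -0.14 and a lower quartile of -0.33, so *Impdh2* lay just below that quartile. The annotation also lists predicted transcripts for both probes, and signal of a near-identical copy would not be separated from *Impdh2*.

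*Impdh1*, the form often described as constitutive, was higher. Its probe on chromosome 6 from 29150442 to 29150501 went from an intensity of 110 to 145, a log2 signal of -0.38 ± 0.15 and 0.34 ± 0.14. The difference of 0.72 corresponds to 1.65-fold, and 10.4% of all probes reached it. Since a probe's brightness depends on its sequence, the levels of *Impdh1* and *Impdh2* cannot be compared with each other within an array.

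*Gmps*, GMP synthetase, completes the branch, and its 3 probes on chromosome 3 ranged from no difference to nearly 2-fold. Probe 1, at position 1465 of the transcript, had a log2 signal of 1.34 on both arrays. Probe 2, at position 2341, went from 0.07 ± 0.14 to -0.92 ± 0.15, a difference of -0.99, and only 5.62% of all probes were as low. Probe 3, at position 4380 and the dimmest, went from -1.32 to -1.56, a difference of -0.24. The differences did not follow the position along the transcript, as the probe in between was the lowest.

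**Figure D2:**
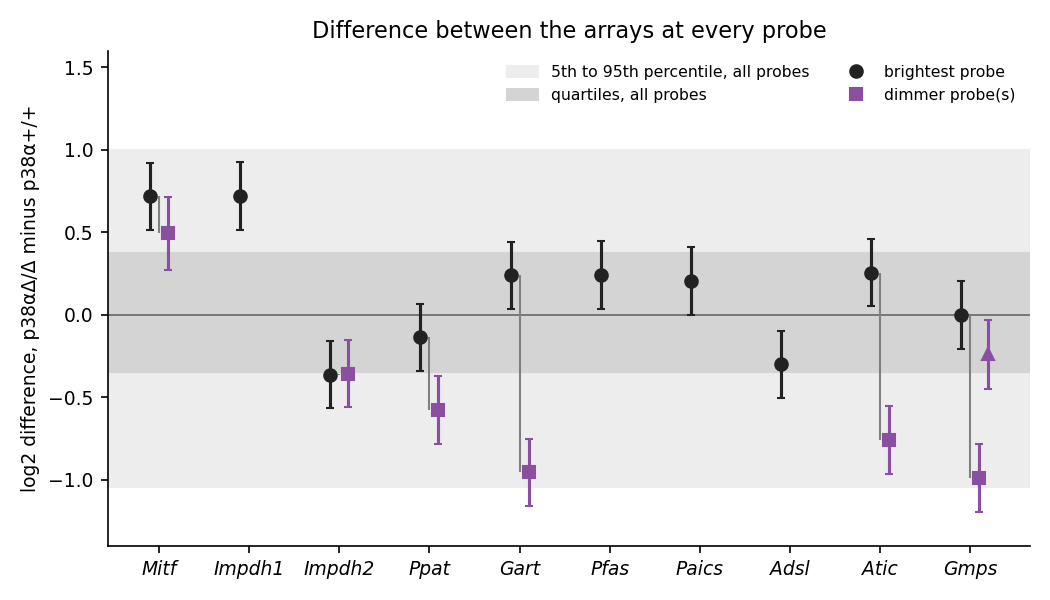
Log2 difference between the arrays, p38αΔ/Δ minus p38α+/+, at every probe of the 10 genes (vertical axis), with the scanner software's error as bars and lines joining probes of one gene. Grey bands hold the quartiles (-0.35 to 0.37) and the 5th to 95th percentile (-1.05 to 1.00) of all probes well above background on both arrays. *Mitf* and *Impdh1* lie above the quartiles, and probe 2 (squares) of *Gart*, *Atic* and *Gmps* lies far below probe 1 (circles), with *Gmps* probe 3 as a triangle.

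The 6 enzymes that build IMP from PRPP showed no common direction. At their brightest probes 4 were higher and 2 lower on the array labelled p38αΔ/Δ, in the narrow range from -0.30 to 0.25. *Ppat*, the amidotransferase that commits PRPP to purine synthesis, went from a log2 signal of 1.02 ± 0.14 to 0.88 ± 0.14 at probe 1, within the scanner error. At its probe 2, which lies upstream in the transcript, it went from 1.00 ± 0.14 to 0.42 ± 0.14. This difference of -0.58 was reached downward by 14.5% of all probes.

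*Gart*, whose trifunctional protein carries out several of the early steps, gave the widest split between probes. Probe 1, on chromosome 16 from 91633742 to 91633801, went from 1.24 ± 0.14 to 1.48 ± 0.14, a difference of 0.24. Probe 2, from 91624630 to 91624689 and so further downstream on the minus strand, went from 0.87 ± 0.14 to -0.09 ± 0.14, a difference of -0.96, and 6.12% of all probes were as low. The *Gart* gene is known to yield, besides the full-length mRNA, a short one that ends early and encodes the first enzyme domain alone. The probes are annotated to different transcripts, but whether probe 1 reads the short mRNA was not tested. Probe 2 was 1.94-fold lower while probe 1 was 1.18-fold higher.

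*Pfas*, which acts between the reactions of *Gart*, went from 1.63 ± 0.14 to 1.87 ± 0.14 at its probe, a difference of 0.24. *Paics*, a bifunctional enzyme that acts on the product of *Gart*, went from 4.42 ± 0.14 to 4.63 ± 0.14, and this difference of 0.20 barely exceeded the scanner error. Probes as bright as that of *Paics* had an upper quartile of 0.10, so *Paics* stood above it. *Adsl*, which acts both before IMP and on the way to AMP, was lower, from 0.90 ± 0.14 to 0.60 ± 0.14. Its probe spans 989 bases of chromosome 15 and so crosses an exon junction.

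*Atic*, which carries out the last steps to IMP, split like *Gart*. Probe 1, on chromosome 1 from 71626146 to 71626205, went from 0.91 ± 0.14 to 1.16 ± 0.14. Probe 2, from 71625743 to 71625802, lies upstream of it, at position 2376 of the transcript against 2785, and went from -0.09 ± 0.15 to -0.85 ± 0.15. The differences were 0.25 and -0.76, and 9.36% of all probes were as low as the latter. Probe 1 covers the hexamer shown above.

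Such splits were not particular to these genes. Among 3582 genes with 2 probes well above background on both arrays, the probes differed from each other by a median of 0.42, and by at least 1.00 in 16.9%. Probes of opposite sign were seen in 41.4%. The range between probes was 1.19 in *Gart* and 1.01 in *Atic*, above the upper quartile of 0.80, but 0.22 in *Mitf* and 0.44 in *Ppat*. For *Gmps*, the range of 0.99 compares with a median of 0.77 over 774 genes with 3 such probes.

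**Figure D3:**
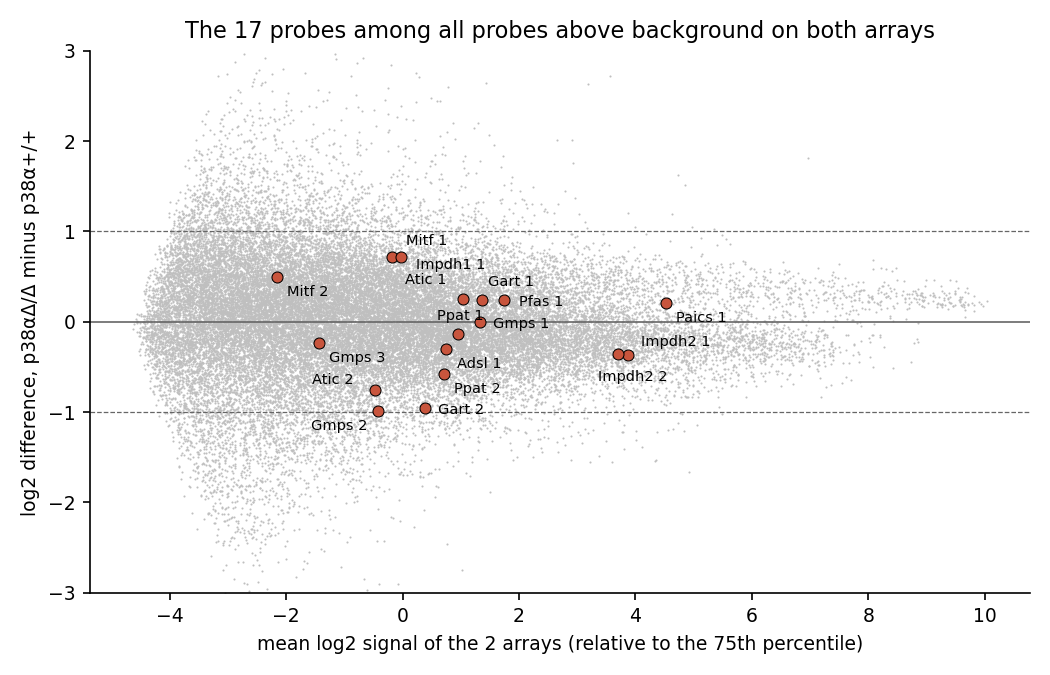
Log2 difference, p38αΔ/Δ minus p38α+/+ (vertical axis), against the mean log2 signal of the 2 arrays (horizontal axis) for 35776 probes well above background on both arrays (grey) and the 17 probes of the 10 genes (red, gene and probe number). Dashed lines mark 2-fold, and 87 grey probes lie beyond the drawn range of 3. The red points all lie within the 2-fold lines.

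Promoter sequences were available for 9 of the 10 genes, in 12 windows of 300 bases from 250 before to 50 after a start, taken from RefSeq on build GRCm38.p6. The E-box CACGTG, which reads the same on both strands, was found in 3 of them, those of *Impdh2*, *Paics* and *Atic*, against 7.15% of 32851 windows of all genes. CATGTG, searched on both strands as well, was found in none of the 12, against 14.2% of all. The 3 *Mitf* and the 2 *Impdh1* windows held neither. The 250 bases upstream of the start are shown for the genes with CACGTG, in capitals, because these genes differed in direction on the arrays.
Impdh2, chr9:108560186-108560435, plus strand: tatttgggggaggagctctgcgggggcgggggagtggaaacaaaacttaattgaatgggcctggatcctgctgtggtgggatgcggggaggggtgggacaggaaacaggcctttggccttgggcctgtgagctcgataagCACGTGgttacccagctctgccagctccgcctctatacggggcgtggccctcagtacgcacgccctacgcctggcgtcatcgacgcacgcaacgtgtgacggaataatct
Paics, chr5:76951052-76951301, plus strand: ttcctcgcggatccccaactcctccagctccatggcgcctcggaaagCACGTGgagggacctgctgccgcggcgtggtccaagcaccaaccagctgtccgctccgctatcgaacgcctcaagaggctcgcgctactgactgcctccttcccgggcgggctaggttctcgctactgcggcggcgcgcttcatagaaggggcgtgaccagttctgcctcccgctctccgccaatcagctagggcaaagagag
Atic, chr1:71556906-71557155, plus strand: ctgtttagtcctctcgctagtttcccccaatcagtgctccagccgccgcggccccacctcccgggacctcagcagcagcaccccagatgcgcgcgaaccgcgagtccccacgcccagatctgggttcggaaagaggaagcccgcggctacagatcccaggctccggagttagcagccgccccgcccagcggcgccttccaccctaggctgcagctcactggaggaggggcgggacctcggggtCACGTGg

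The motif begins 110 bases before the start in *Impdh2*, 203 in *Paics* and 7 in *Atic*. These letters are a description of the sequence, and binding of *Mitf* was not measured. On the arrays, *Impdh2* was lower (-0.36), *Paics* higher (0.20) and *Atic* divided between its probes (0.25 and -0.76), while *Mitf* was higher (0.72). *Paics* (plus strand) and *Ppat* (minus strand) overlap at their 5' ends on chromosome 5, with starts at 76951302 and 76951578. The 276 bases between the starts thus belong to both genes, and no stretch between them lies upstream of both. The stretch shown for *Paics*, with its CACGTG, lies downstream of the *Ppat* start. The log2 differences were 0.20 for *Paics* and -0.14 and -0.58 for *Ppat*.

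Genes that feed or bypass the pathway were read at the brightest probe of each. Of the 17086 genes measured on either array, 52.4% were lower by any amount, and the median was -0.03. By at least 1.5-fold, 15.4% were lower and 12.7% higher, and 6.61% and 4.11% passed 2-fold. The 10 genes themselves had a median of 0.22, and *Mitf* and *Impdh1* were the only ones past 1.5-fold, both higher. This median rests on the choice of probe. With a gene's probes averaged it was -0.28, because *Gart* turned to -0.36 and *Atic* to -0.25.

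The supply of PRPP, the sugar phosphate on which the ring is built, was lower at 6 of 8 measured genes, with a median of -0.19. This median was -0.11 with quantile normalization, -0.12 with loess and -0.10 with normexp. *Prps2*, a PRPP synthetase, was 1.69-fold lower, going from -0.14 to -0.89, and its regulator *Prpsap1* differed by -0.32. *Pgd* (0.04) and *Rpia* (0.01), enzymes of the pentose phosphate pathway, did not differ beyond the spot error. Apart from *Prps2*, no gene of this list differed by 1.5-fold.

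Folate enzymes and transporters supply the one-carbon units for a pair of steps. Of 16 such genes 9 were lower and 7 higher, with a median of -0.14, and past 1.5-fold were 2 lower and 1 higher. *Mthfs* (-0.97) and *Mthfd2*, the mitochondrial folate enzyme of dividing cells (-0.66), were the lowest. The folate carrier *Slc19a1* was highest at 1.15, but its second probe was at -0.15. *Mthfd1*, which makes the folate form that *Gart* and *Atic* use, followed at 0.55.

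Salvage and interconversion enzymes were lower at 14 and higher at 8 of 22 measured genes, with a median of -0.18, and again 2 lower and 1 higher passed 1.5-fold. *Guk1*, guanylate kinase, which acts on GMP right after *Gmps*, was 2.33-fold lower, from -0.63 to -1.85. *Pnp* differed by -0.64 at its brighter probe and by 0.01 at the other, and it has a near-identical neighbouring copy. *Gmpr*, which turns GMP back into IMP, was 1.58-fold higher, from -2.69 to -2.03, and *Nt5c2* differed by 0.20 (-0.02 at its other probe). *Ampd3*, an AMP deaminase, was measured on the array labelled p38αΔ/Δ alone and was at least 1.36-fold higher there, the other array being set to the lowest signal it could call. *Hprt* (-0.31) and *Aprt* (-0.35), which salvage the bases, were both lower, but neither fell below the lower quartile of all probes (-0.35).

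Pyrimidine synthesis, the counterpart pathway, had 5 genes lower and 4 higher, with a median of -0.03 and none at 1.5-fold. The sign of this median changed with the processing, as it was 0.07 with quantile normalization, 0.05 with loess, 0.05 with normexp and -0.14 with probes averaged. *Cad*, its first enzyme, was the highest at 0.50, followed by *Ctps* at 0.25, and *Umps* (-0.38) and *Dhodh* (-0.32) were the lowest. The 3 ribonucleotide reductase genes were higher at their brightest probes, *Rrm2b* by 0.29, *Rrm1* by 0.20 and *Rrm2* by 0.10, but *Rrm2b* was at -0.47 at its other probe. Of 10 genes of cycling cells 7 were higher, with a median of 0.20 and a summed signal of 74.8 and 81.5, and *Ccnb1* (-0.67) was the one at least 1.5-fold apart. The part of these in the values of the purine genes was not tested.

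**Figure D4:**
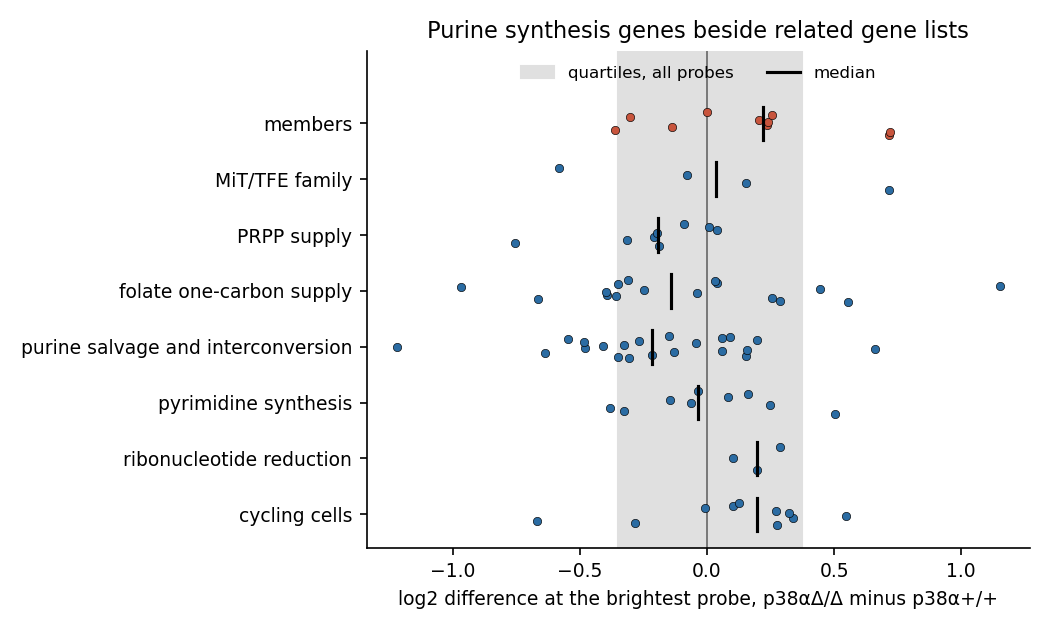
Log2 difference at the brightest probe, p38αΔ/Δ minus p38α+/+ (horizontal axis), of the genes well above background on both arrays in each list (1 point per gene), with the median as a vertical bar and the quartiles of all probes as a grey band. The 10 genes (red) have their median at 0.22 and the salvage genes, without *Ampd3*, at -0.21.

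The direction at single probes held under the other processing settings. Several of these settings only add a common constant to the probes of these genes or leave them unchanged. A kept sign was largely fixed in advance there, unlike with quantile normalization, loess or normexp. Over 8 settings with values for each probe besides the one used here, 16 of 17 probes kept their sign, and the exception was *Gmps* probe 1, which lay between -0.0049 and 0.04. *Mitf* probe 1 ran from 0.51 to 0.75 and *Impdh1* from 0.49 to 0.75, both lowest with normexp background correction, where neither reached 1.5-fold. *Impdh2* probe 1 ran from -0.36 to -0.23. For *Gart*, *Atic*, *Ppat* and *Gmps*, averaging the probes moved the value further than any of these settings did.

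**Figure D5:**
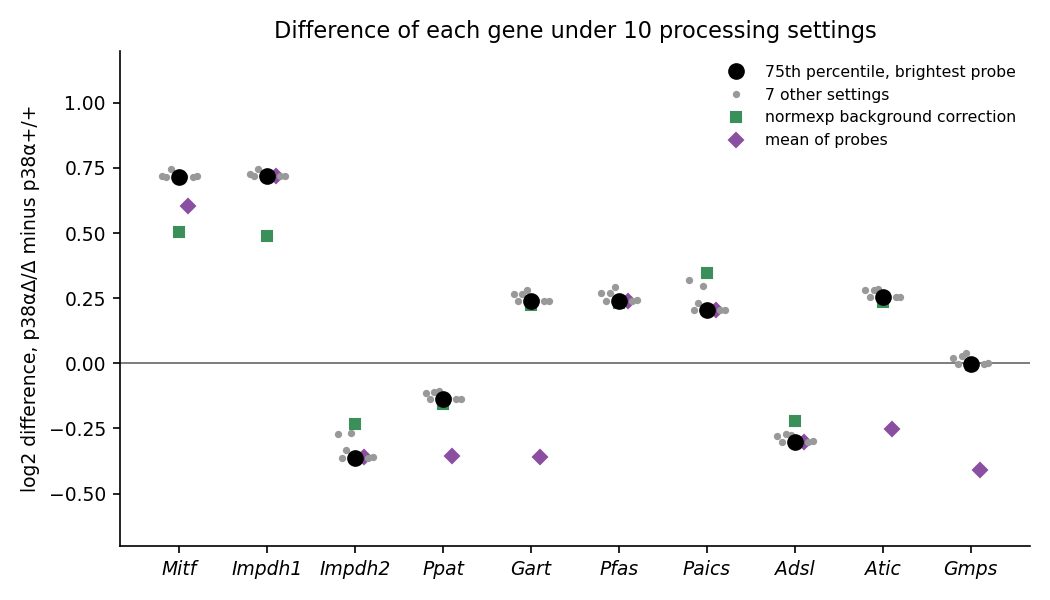
Log2 difference of each gene, p38αΔ/Δ minus p38α+/+ (vertical axis), with the processing used here (black circles), with normexp background correction (green squares), with probes averaged (purple diamonds) and with 7 other settings (grey). The diamonds of *Gart* (-0.36) and *Atic* (-0.25) lie on the other side of 0 from the remaining settings.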

How the data were processed

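LT-HSC RNA was labelled with Cy3 and hybridized to single-colour Agilent arrays, 1 per genotype. The authors deposited each array's scanner intensity, produced with Agilent Feature Extraction 11.5.1.1, background-subtracted and detrended but not normalized between arrays. Probe coordinates are those of build mm9, and the design gives no exon or UTR annotation. The authors also deposited normalized log2 values for 35795 probes, each column equal to the log2 processed signal minus a constant (7.16 and 6.84), with medians of -0.79 and -0.79. How the service company set the constants is not given in the sources used here.

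Control spots and outlier spots were left out (19 probes lost), spots of a probe were averaged, and the 75th percentile over the remaining probes was subtracted (7.16 and 6.85). Gene names came from the array, and for gene lists from a symbol or older symbol in a RefSeq table of GRCm38.p6 (31609 probes named). Where a gene was not well above background on an array, its value was raised to the lowest that was, if it lay below that. The number of arrays limits the precision, and 0 spots were saturated. All 10 genes are named, and in each related list the pair of largest differences in each direction among genes measured on both arrays, plus genes measured on 1 array. *Hprt* and *Aprt* and single genes of the marker lists were named after their values were seen. The genes and lists were chosen with earlier results of these data known. A probe sequence and a marker list are not reported here. With 1 array per group no test was run. Alternatives were quantile normalization, the median or the 75th percentile of detected probes, loess (span 0.3), normexp (offset 50) with quantile normalization, the authors' values, the mean of probes, no filter or floor, and outlier spots kept. Python 3.11.15, numpy 2.4.6, pandas 2.3.3, R 4.3.3 and limma 3.58.1 were used.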

Additional observations from a re-analysis of the deposited data

How the results depend on the processing

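Of 90 values of the 10 genes under 9 alternatives, 82 moved by less than the spot spread of 0.13. Several of the alternatives only add a common constant to the probes of these genes, so small moves there were fixed in advance. With normexp, *Mitf* was 0.51 (0.72 in the setting used), *Impdh1* 0.49, *Impdh2* -0.23 (-0.36) and *Paics* 0.35. With the mean of probes, the median of the 10 genes turned from 0.22 to -0.28, *Gart* turned to -0.36 and *Atic* to -0.25, and *Ppat* (-0.36) and *Gmps* (-0.41) moved, since their dimmer probes were lower. For normexp the cause was not tested. *Mitf* probe 2 was 0.20 with normexp (0.49).

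List medians that moved with normexp were those of HSC (-0.78 to -0.50), mast cell and basophil (-0.64 to -0.20), neutrophil (1.63 to 0.87), B cell (0.75 to 0.21) and pigment cell genes (0.25 to 0.05), and the salvage median went from -0.18 to -0.06 and the folate median from -0.14 to -0.05. With probes averaged, the folate median was -0.30, the HSC median -0.54 and the mast cell and basophil median -0.40. With no filter and no floor, the B cell median was 0.98 and the pigment cell median 0.08.

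Over all genes, at least 2-fold lower and higher genes numbered 1130 and 702, 121 and 56 with normexp, and 1771 and 1521 with no filter and no floor, where more genes enter. At 1.5-fold they numbered 2633 and 2167, and 760 and 512 with normexp, and 3331 were higher with no filter. Each genotype has 1 array, so no replicate could be left out, and no paired analysis was possible because the groups share fewer than 2 replicate numbers. Dim probes such as *Mitf* probe 2 carry the least signal over background.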
